A study of Mus musculus with 405 samples.

Results

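Organophosphate insecticides and oxons were studied here as a set of related compounds in a screen of chemicals on mouse cortical neuron cultures. Members were the chemicals whose sample titles began with any of 31 names. A library was matched for 29 of those names, and "chlorpyrifos" matched both chlorpyrifos-methyl and chlorpyrifos oxon, so the set held 30 chemicals in 31 libraries, of 297 chemicals in 393 libraries. Most members are insecticides, a few are nematicides (fosthiazate, fenamiphos), bensulide is a herbicide, and chlorpyrifos oxon, diazoxon and malaoxon are the active metabolites of insecticides. Of the 30, 15 have oxygen double-bonded to phosphorus (P=O) and 15 have sulfur there (P=S).

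The cultures came from cortex of embryonic day 15 hybrid embryos, with C57BL/6J dams and CAST/EiJ sires, and received an antimitotic on day 3 in vitro. On day 7 in vitro they were exposed for 24 h, either to a member at 10 µM or to the solvent vehicle (DMSO). Polyadenylated RNA was then sequenced. There were 49 vehicle libraries, 221 other chemicals tested at 10 µM, and among those 8 carbamates, which inhibit the same enzyme as the organophosphates: aldicarb, bendiocarb, carbaryl, formetanate hydrochloride, methomyl, oxamyl, pirimicarb and propoxur. A further 6 organophosphates in the screen, none of them among the names, were left out of both groups. Each member was a single library except mevinphos, with 2. The labels do not say whether the vehicle libraries came from separate cultures. For lone members, p-values therefore measure the spread between libraries that share a treatment, whether or not their cultures were separate. In comparisons of groups, each chemical stood as a replicate of its group. The p-values of those comparisons measure the spread between different chemicals, together with that between vehicle libraries where vehicle was the reference.

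The values are deviations of each gene from its median over the screen, so they give no expression level and no read depth. All values below are log2 differences from the mean of the vehicle libraries unless another reference is named, and a gene was called when its adjusted p (limma, Benjamini-Hochberg) was under 0.05. In such bulk RNA, fewer cells of a type and less RNA per cell cannot be told apart. The 13304 measured genes included all 10 of the excitatory neuron markers and all 10 of the GABAergic neuron markers that were listed, but also 8 of 10 for astrocytes, 6 of 11 for microglia, 10 of 11 for mural cells and fibroblasts and 1 of 7 for endothelium. RNA of other cell types was therefore measured along with that of neurons.

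Organophosphates act by phosphorylating the active-site serine of acetylcholinesterase, the enzyme that clears acetylcholine from synapses, and of other serine hydrolases. P=S compounds are weak inhibitors until cytochrome P450 enzymes, most active in liver, exchange the sulfur for oxygen, which gives the oxon. P=O compounds can react without that step. In cortex most neurons use glutamate or GABA, and acetylcholine comes mainly from fibres that arise outside it.

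The members differed widely in how many genes they changed. Each member was compared with vehicle in a limma fit over all groups, in which a lone library was assumed to vary like the replicated groups (95 residual degrees of freedom). Of 399120 tests over the 30 members, 1675 were called (0.42%), of which 270 were higher and 1405 lower. Fosthiazate had 443 called genes, azinphos-methyl 318, methidathion 196, trichlorfon 161 and naled 123. These 5 chemicals held 74.1% of all calls. Malathion followed with 83, phosalone with 63 and profenofos with 43, while 12 members had 10 or fewer calls and mevinphos had 0. The median over members was 16.5 calls (quartiles 8.25 and 39), against 11 (quartiles 5 and 19) for the other chemicals at 10 µM and 6.5 (range 1 to 16) for the carbamates. The number of calls did not follow the bond to phosphorus, with a median of 17 in P=O members and 16 in P=S members. The median 95% interval for 1 library against vehicle reached 0.50 to either side, so smaller differences were not detectable for most genes. The counts also depended on the source of the spread. With the spread taken from vehicle alone, most members had fewer calls, among them malathion, naled and bensulide, while azinphos-methyl and dimethoate had more. The other chemicals were not counted in that way.

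**Figure D1:**
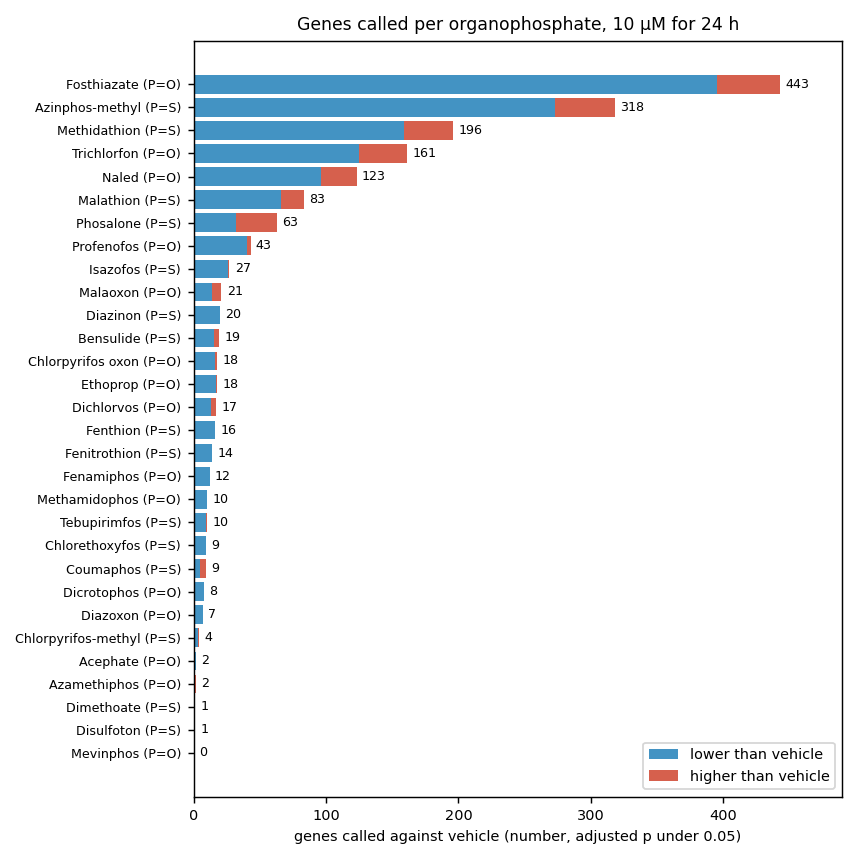
Number of genes called against vehicle for each of the 30 organophosphates (horizontal axis), split into genes lower than vehicle (blue) and higher than vehicle (red). The counts run from 443 for fosthiazate to 0 for mevinphos, and lower calls outnumber higher calls in nearly every compound with many calls.

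The genes called in the largest number of members were Jun and Srxn1, each higher in 6 members, followed by Bcl2l11 (higher in 4) and Uqcrq (lower in 4). Jun encodes a component of the AP-1 transcription factor, an immediate early gene induced by stress and injury in neurons. Srxn1 encodes sulfiredoxin, which reactivates oxidised peroxiredoxins, Bcl2l11 encodes the pro-apoptotic protein BIM, and Uqcrq encodes a subunit of mitochondrial complex III. At 3 members stood Hmox1, Eif2ak3, Fth1, Stmn4, AI414108, Map1lc3a and Sepw1, all higher.

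Jun was high in a subset of the P=O members. The vehicle libraries ran from -0.34 to 0.50. Naled stood at 1.32, trichlorfon at 1.27, dichlorvos at 1.00, profenofos at 0.99, ethoprop at 0.83 and chlorpyrifos oxon at 0.77, and these 6 were called. Azamethiphos, at 0.64, was also above every vehicle library but was not called. All 7 members above the vehicle range were P=O compounds, and the other 8 P=O members ran from -0.18 (dicrotophos) to 0.43 (mevinphos), inside it. The P=S members ran from -0.50 (coumaphos) to 0.35 (methidathion), with none above vehicle. Jun was called higher in 20% of the members, against 2 of the 221 other chemicals (0.905%), which were bifenthrin and prochloraz. It was called in 0 of the 8 carbamates and in 0 of the 6 organophosphates outside the list of names. Ranked over all 297 chemicals, 7 of the 10 highest Jun values belonged to members.

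In genome build mm9 Jun lies at chr4:94715725-94718913 on the minus strand. Its promoter window (RefSeq, GRCm38.p6, 250 bases before to 50 after the start) is shown around the match to TGACNTCA, the letters of an AP-1 or CRE type site, because Jun is a gene that AP-1 proteins are known to control. The match was searched on both strands and begins 45 bases before the start, and capitals mark it.
Jun, chr4:95052249-95052278, minus strand: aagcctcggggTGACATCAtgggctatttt
The same letters occur in 10.0% of the 27025 promoters in that table, so the match is a description of the window and no more.

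Further genes were high in some of these compounds, all of which were compared with the same vehicle libraries. Bcl2l11 (chr2:127951774-127988283, mm9) stood at 1.51 with naled, 1.46 with trichlorfon, 1.21 with dichlorvos and 1.20 with chlorpyrifos oxon, against a vehicle range of -0.66 to 0.74. Those 4 were called, and profenofos (0.93) and methidathion (0.84) were above the vehicle range without being called. Among the 221 other chemicals Bcl2l11 was called higher in 1, prochloraz. Arid5a (chr1:36364578-36380874, mm9) encodes an RNA-binding protein that stabilises cytokine transcripts. It stood at 2.67 with trichlorfon and 1.90 with naled, both called, and at 1.69 with chlorpyrifos oxon and 1.67 with dichlorvos, above the highest vehicle library (1.48) but not called. Stmn4, a neuronal stathmin that regulates microtubules, was called at 0.83 with naled, 0.78 with trichlorfon and 0.66 with dichlorvos. Eif2ak3, the endoplasmic reticulum kinase PERK, was called at 1.00 with naled, 1.38 with trichlorfon and 1.05 with dichlorvos. Naled also raised Egr1 (1.61) and trichlorfon raised Ier2 (1.63), Btg2 (1.40) and Jund (0.64), all immediate early genes. Of the 32 measured immediate early genes 4 were called higher with trichlorfon, where 36 of all 13304 genes were higher (0.271%), and 2 with naled, where 27 were (0.203%). The list's median in trichlorfon was 0.63, above a vehicle range of -0.36 to 0.53 and below the highest of the 221 other chemicals, cyfluthrin at 0.66.

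**Figure D2:**
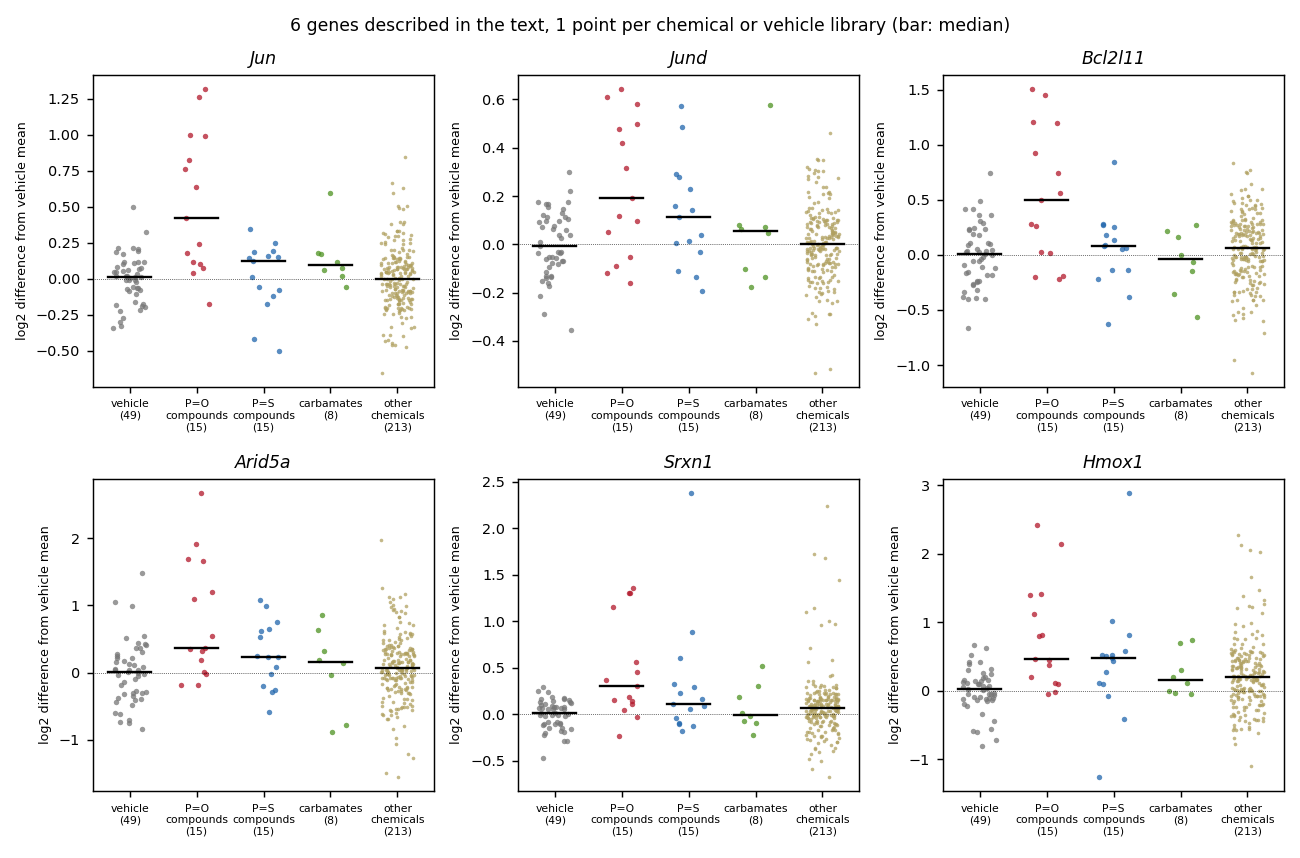
Log2 difference from the vehicle mean (vertical axis) of 6 genes for 49 vehicle libraries, 15 P=O and 15 P=S organophosphates, 8 carbamates and 213 further chemicals at 10 µM, with 1 point per chemical or vehicle library and a bar at the group median. For Jun, 7 P=O compounds lie above the highest vehicle library (0.50) and the P=S compounds do not, whereas for Srxn1 and Hmox1 the highest point is a P=S compound, phosalone.

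Comparing all 30 members with the 221 other chemicals at 10 µM asked which genes mark the class rather than chemical exposure in general. It called 7 of 13304 genes (0.0526%, and 1073 at an unadjusted p under 0.05). Here the difference is from the mean of the other chemicals. Jund, which encodes another AP-1 component, was higher by 0.18 (SE 0.03, limma adjusted p = 0.00337). Jun was higher by 0.25 (SE 0.05, limma adjusted p = 0.00538) and Arid5a by 0.45 (SE 0.10, limma adjusted p = 0.0429). Abcg1, a sterol exporter, was higher by 0.24 (limma adjusted p = 0.0415), with members at 0.14 and the other chemicals at -0.10 from the vehicle mean, and Stmn4 by 0.16 (limma adjusted p = 0.0429). The sixth riser, Dusp8, a phosphatase of the JNK and p38 kinases, falls outside the naming rule and was chosen after its value was seen, at 0.11 (limma adjusted p = 0.00749). Larp1, a translation regulator, was lower by 0.08 and is the only called gene below the other chemicals. These differences were carried by few members. Jund stayed called when any member was left out, but Jun lost its call without dichlorvos, naled or trichlorfon (highest limma adjusted p = 0.0897), and the count of called genes fell to 1 when each of these 3 was left out in turn. Abcg1, Arid5a, Larp1 and Stmn4 lost their calls in 11, 13, 12 and 12 of the 30 settings that left out 1 member. Without trichlorfon and naled together 0 genes were called and the Jun difference was 0.18.

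P=O and P=S members were compared directly, since P=S compounds are weak inhibitors until their sulfur is exchanged for oxygen. No gene was called (0%), and 838 had an unadjusted p under 0.05 with a smallest adjusted p of 0.435. The Jun difference was 0.51 higher in P=O members (95% interval 0.23 to 0.78, limma adjusted p = 0.482), with a mean of 0.52 ± 0.48 (SD, n = 15) in P=O and 0.01 ± 0.24 (SD, n = 15) in P=S members. That of Bcl2l11 was 0.49 (0.13 to 0.84, limma adjusted p = 0.768) and that of Arid5a 0.50 (-0.01 to 1.02, limma adjusted p = 0.790). Jun, Bcl2l11 and Arid5a were picked after their values in single P=O members were seen. Their intervals are not adjusted for that choice and are descriptions only. The lowest unadjusted p-values, none called, fell to Kctd7 (-0.27), Thoc6 (-0.55) and Rell1 (0.43). A missed threshold does not show that both kinds act alike.
A difference in the alkoxy groups gave no call either. The 14 members with a pair of methoxy groups on phosphorus were compared with the 8 that carry a pair of ethoxy groups. Of 13304 genes 0 passed (0%), with 573 at an unadjusted p under 0.05 and a smallest limma adjusted p of 0.862. The lowest unadjusted p-values were those of 2610001J05Rik (-0.22), Pstpip2 (1.11) and Arc (0.96), none called. Arc, an immediate early gene of synaptic plasticity, had a mean of 0.21 ± 0.43 (SD, n = 14) in dimethoxy members and -0.74 ± 0.66 (SD, n = 8) in diethoxy members, with a 95% interval of 0.50 to 1.42 for the difference. The Jun difference was 0.24 (-0.17 to 0.65). With these sizes the median 95% half-width was 0.23 per gene.

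Genes of cholesterol synthesis were lower with trichlorfon. These genes are under the control of SREBP2, which raises them when sterols in the endoplasmic reticulum are low. Of the 24 measured genes of a list of 27, 17 were called lower with trichlorfon, where 125 of all 13304 genes were lower (0.94%), and none was called higher. Mvd, mevalonate decarboxylase, stood at -2.12 (SE 0.38), the sterol carrier Stard4 at -2.04, and mevalonate kinase Mvk at -1.57. The sterol sensor Insig1 stood at -1.38, lanosterol synthase Lss at -1.31 and squalene epoxidase Sqle at -1.06. Trichlorfon's list median was -1.05, with 23 of 24 genes negative, while vehicle libraries had list medians of -0.35 to 0.54 and the lowest of the 221 other chemicals, trifloxystrobin, -0.77.

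Other members showed smaller values on the same list. In naled Hsd17b7 (-1.17) was called, with a list median of -0.52, and in dichlorvos Sqle (-0.90), with -0.51. Profenofos had a list median of -0.52 and chlorpyrifos oxon of -0.37, with 23 and 22 of 24 genes negative and none called. The list medians of naled, dichlorvos, profenofos and chlorpyrifos oxon also lay below the vehicle range. Malaoxon had 24 of 24 genes positive, with a median of 0.49, and malathion 23 of 24, with 0.43, both inside the vehicle range and with none called. Over all 30 members against vehicle, 0 of the 24 genes were called and the list median was 0.03, against -0.01 over all genes. In the P=O against P=S comparison, 1 of 24 genes was higher in the P=O members and the list median was -0.29, with none called and a median over all genes of 0.00. Of the 17 genes lowered by trichlorfon 10 had a promoter window, and the letters TCACNCCAC, a form of the sterol regulatory element, matched none of them on either strand, against 1.44% of all promoters. That says only that these letters are not in those windows.

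**Figure D3:**
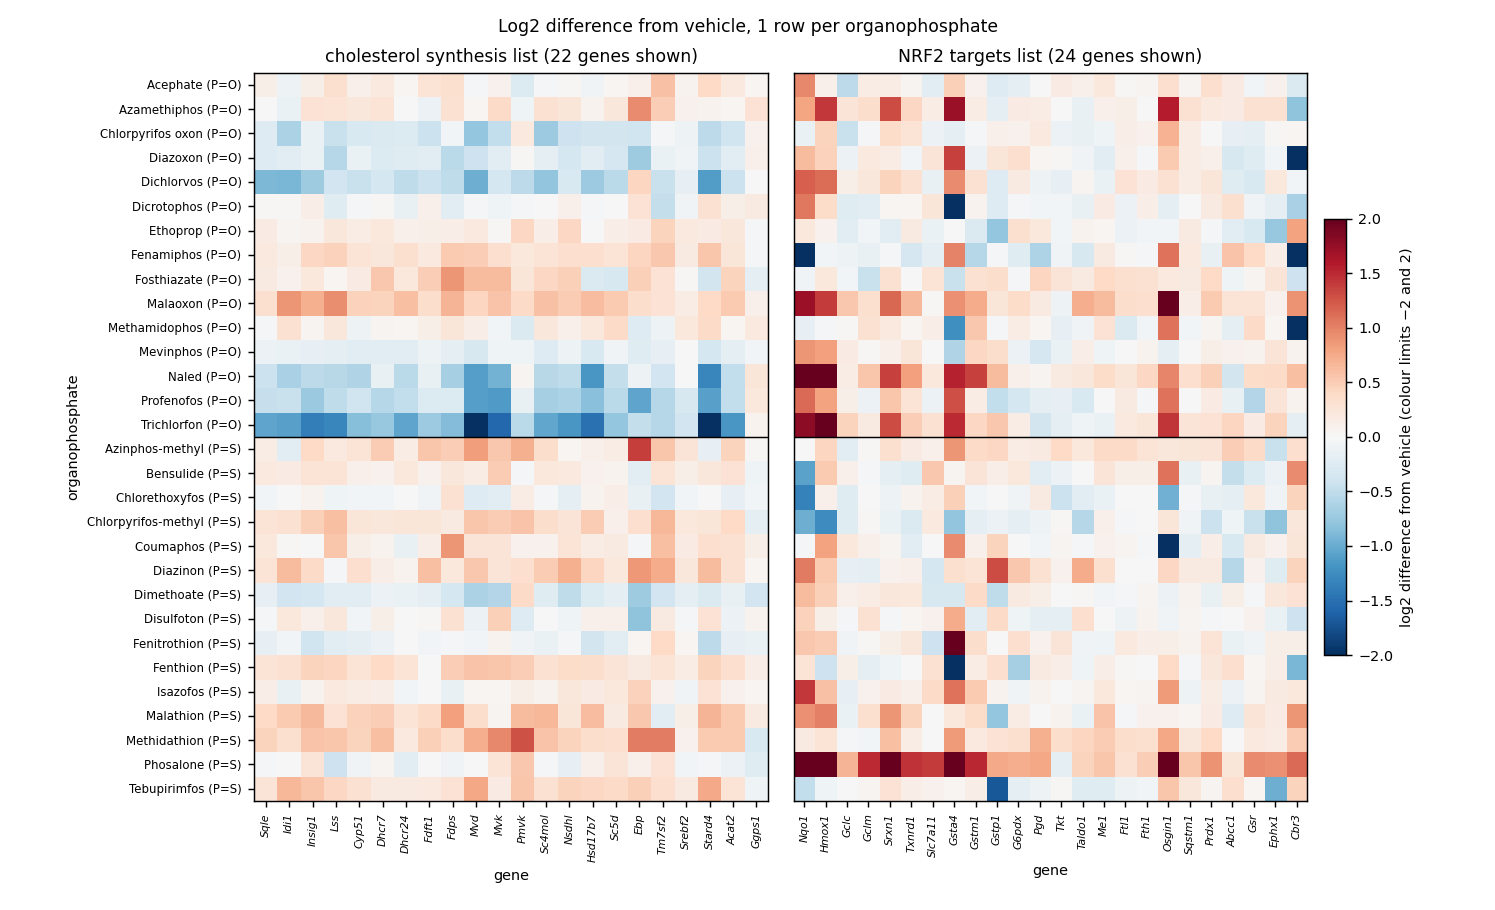
Log2 difference from vehicle (colour, red higher and blue lower) for 22 of the 24 measured cholesterol synthesis genes (left) and the 24 NRF2 target genes (right) in each of the 30 organophosphates, with P=O compounds above the black line and P=S compounds below it. Trichlorfon has the bluest row at the left (median -1.05 over the 24 genes) and phosalone the reddest at the right (median 0.90).

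Targets of NRF2, the transcription factor that answers electrophiles and oxidants, were high with phosalone. Of 24 listed and measured genes 10 were called higher, where 31 of all 13304 genes were higher (0.233%). Hmox1 (chr8:77617490-77624495, mm9), heme oxygenase, stood at 2.88 (SE 0.36) against a vehicle range of -0.81 to 0.67, and Srxn1 (chr2:151931252-151937112, mm9) at 2.38 (SE 0.19) against -0.47 to 0.29. The glutathione genes Gstm1 (1.51), Gclm (1.50) and Gsr (0.94), the cystine transporter Slc7a11 (1.40), thioredoxin reductase Txnrd1 (1.45), peroxiredoxin Prdx1 (0.90), Sqstm1 (0.55) and ferritin heavy chain Fth1 (0.49) made up the rest. Phosalone's list median was 0.90, above the vehicle range of -0.21 to 0.22 and the highest of the 221 other chemicals (0.43, quintozene).

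A 29-base window is shown for each of the 4 genes in which the antioxidant response element core, TGACNNNGC, was found in the promoter, since these are the letters NRF2 is known to bind. Of the 10 genes raised by phosalone 8 had a promoter in the RefSeq table (GRCm38.p6), and 4 of the 8 held the core on either strand, against 14% of all promoters. The windows are read on the strand of the gene, where the core appears in reverse complement, and capitals mark it. In Srxn1 it lies after the start and in the other 3 before it.
Gclm, chr3:122245413-122245441, plus strand: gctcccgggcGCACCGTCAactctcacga
Srxn1, chr2:152105542-152105570, plus strand: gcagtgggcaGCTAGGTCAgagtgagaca
Txnrd1, chr10:82859104-82859132, plus strand: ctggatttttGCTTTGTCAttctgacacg
Prdx1, chr4:116685456-116685484, plus strand: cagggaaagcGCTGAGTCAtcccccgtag
A match is not evidence of binding in these cells.

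Srxn1 and Hmox1 were also high in other members. Srxn1 was called in naled (1.36), trichlorfon (1.31), azamethiphos (1.31), malaoxon (1.15) and malathion (0.88), and 12 of 30 members were above the highest vehicle library. Among the 221 other chemicals 11 had Srxn1 called higher (4.98%), among them the chloroacetanilides acetochlor, alachlor, butachlor and metolachlor. Hmox1 was called in naled (2.42) and trichlorfon (2.15), and in 8 other chemicals (3.62%). Naled had 5 of the 24 NRF2 list genes called higher (Hmox1, Srxn1, Txnrd1, Gstm1 and Fth1), where 27 of all genes were higher (0.203%). Malaoxon had 23 of 24 positive, with a list median of 0.45 and Srxn1 called. Scd1, a fatty acid desaturase, stood at 1.13 with malaoxon and at 1.14 with malathion, called in each against the same vehicle libraries.

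Fosthiazate, azinphos-methyl and methidathion had the most calls, and these were mostly lower. From their expression the study had placed all 3 in its cluster 6, together with boscalid, cyhalofop-butyl, metsulfuron and thiophanate, so their likeness is not independent evidence. The study reported significantly lower RNA integrity for this cluster, but judged the quality of its samples to be high enough. It found no evidence that RNA quality contributed to its clusters. RNA integrity was not analysed here, and its part in these values was not tested. Fosthiazate had 395 genes lower (2.97%), azinphos-methyl 273 (2.05%) and methidathion 159 (1.2%). The largest falls with fosthiazate were in Dnmt3aos (-4.24), Ghrl (-3.84) and Stxbp3b (-3.84), and the largest rises in the lipid transporter Abca7 (2.20), Rnls (2.04) and the NMDA receptor subunit Grin3b (1.83). With azinphos-methyl Gm15350 (-3.88) and Snrpf (-3.86) fell, and Prtn3 (3.28), Abca7 (2.95) and Grin3b (2.13) rose most. With methidathion Dnmt3aos (-5.08), 4930599N23Rik (-3.77) and Gm13034 (-3.74) fell most, and Fam162a (2.07), Gstm5 (1.40) and the opsin Opn3 (1.38) rose most. These values lay outside the vehicle range, but some genes also varied widely between vehicle libraries. The lowest vehicle library stood at -3.76 for Dnmt3aos, -3.28 for Ghrl, -3.38 for Stxbp3b, -3.38 for Gm15350 and -3.24 for Gm13034. The highest stood at 1.99 for Abca7. For 4930599N23Rik the lowest stood at -1.29. The NMDA receptor subunit Grin2b fell to -3.02 with fosthiazate and -2.92 with azinphos-methyl, and the metabotropic receptor Grm3 to -1.37 and -1.32. Lower Grin2b was already given by the study as a trait of cluster 6. The GABA-A receptor genes Gabrb1 (-1.50) and Gabrb2 (-0.53) fell with fosthiazate and Gabrg3 (-2.0) with azinphos-methyl. Map1lc3a, of autophagosomes, and the selenoprotein gene Sepw1 rose with all 3, Map1lc3a by 0.53, 0.49 and 0.48 and Sepw1 by 0.49, 0.59 and 0.59. Strand-specific counting is not stated and the library kit does not mark strand, so Dnmt3aos and other antisense genes cannot be told apart from their partners.

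In these 3 compounds the difference from vehicle varied with transcript length. Over the 12029 genes with a coding transcript (90.4% of those tested), the Spearman correlation of the difference from vehicle with length was -0.51 for fosthiazate, -0.43 for azinphos-methyl and -0.42 for methidathion, against -0.22 to 0.10 in the other 27 members. Genes called lower had median lengths of 6247, 6321 and 6951 bases in these 3 compounds, against 3186 bases over all genes, and those called higher 1436, 1836 and 1351 bases. Genes are not independent replicates, so these are descriptions, and the part of length in the calls was not tested. The whole profiles of the 3 were also the most alike of any members, with Spearman correlations over all genes of 0.43 for azinphos-methyl with fosthiazate, 0.35 for fosthiazate with methidathion and 0.33 for azinphos-methyl with methidathion. Other chemicals were as near. Metsulfuron, a herbicide of the same cluster, had 0.48 with fosthiazate, 0.44 with azinphos-methyl and 0.32 with methidathion, and boscalid had 0.37 with fosthiazate and 0.36 with azinphos-methyl.

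Naled and trichlorfon, the other members with over 100 calls, had named changes beyond those already given. The largest rise with naled was in the collagen gene Col5a3 (3.11, SE 0.48), followed by Hmox1 and Arid5a, and the largest falls in Man2c1os (-4.53), the muscle enolase Eno3 (-4.23) and Gm2011 (-4.06). With trichlorfon the largest falls were in the mitochondrial ferredoxin Fdx1 (-4.30), the centromere gene Cenpm (-3.79) and Hebp2 (-3.33), and Arid5a, Hmox1 and Ier2 rose most. Both also lowered the calcium-binding chaperone Calr, at -0.39 and -0.42, and naled lowered Hspa5 (-0.45), the main chaperone of the endoplasmic reticulum. Trichlorfon raised Ddit3 (1.37), the stress transcription factor CHOP. Its median over the endoplasmic reticulum stress list was nevertheless -0.31, below the vehicle range (-0.16 to 0.24) and the lowest of the other chemicals at 10 µM (-0.23). Calr, Hspa5 and Ddit3 come from the stress lists.

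Taken as a class against vehicle, the 30 members had 188 of 13304 genes called (1.41%, and 1971 at an unadjusted p under 0.05), 51 higher (0.383%) and 137 lower. The differences were small, with a median size of 0.15 among called genes and a largest of 0.64. The largest rises were in Znrd1as (0.64), 1700029J07Rik (0.64), Hmox1 (0.61), the endothelial nitric oxide synthase Nos3 (0.53), Arid5a (0.52), A330041J22Rik (0.48), elastin Eln (0.42), the stress gene Gadd45g (0.42), the glutathione-degrading enzyme Chac1 (0.40) and Srxn1 (0.39). The largest falls were in Hrc (-0.59), a calcium-binding protein of the sarcoplasmic reticulum, 1500012K07Rik (-0.56), A630066F11Rik (-0.45), the xylosyltransferase Xylt1 (-0.42), 3010001F23Rik (-0.38), the calcium channel Trpv6 (-0.35), Gm3414 (-0.35), Rbm45 (-0.33), the receptor phosphatase Ptprt (-0.33) and the activin subunit Inhba (-0.30). Without fosthiazate, azinphos-methyl or methidathion the count was 117, 119 and 125, and it was 51 without the 5 members that the study placed in its expression clusters. Chac1, Eln, Gadd45g, Hmox1, Hrc, Nos3, Srxn1 and Trpv6 stayed called when any 1 of the 79 chemicals or vehicle libraries was left out, while Znrd1as lost its call in 44 of 79 and Arid5a without dichlorvos or trichlorfon (highest limma adjusted p = 0.0527).

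Trpv6 had the lowest adjusted p. Its values ran from -1.02 (naled) to 0.12 (tebupirimfos) in the members, with a median of -0.38, and from -0.54 to 0.60 in vehicle, with a median of 0.01. The groups overlapped, with 7 of 30 members below every vehicle library (limma adjusted p = 6.74e-05). Hmox1 ran from -1.26 (chlorpyrifos-methyl) to 2.88 (phosalone) with a median of 0.47, and 10 of 30 members were above every vehicle library (SE 0.13, limma adjusted p = 0.00632). Sst, which encodes the neuropeptide somatostatin, ran from -0.18 to 0.79 with a median of 0.25, against -0.67 to 0.47 in vehicle, a mean difference of 0.26 (limma adjusted p = 0.00632). Hmox1, Srxn1 and Fth1 were the 3 of 24 NRF2 genes called, with a list median of 0.10 and 20 positive, against -0.01 over all genes. Set against the 221 other chemicals, 0 of the 24 NRF2 genes were called, with 20 positive and a median of 0.08. Trpv6 and Sst were not among the 7 genes called in that comparison either.

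The other lists had few calls in the class as a whole. Of 28 ATF4 targets measured, of the amino acid response, 4 were higher (Chac1, Cebpb at 0.30, Atf5 at 0.21 and the amino acid transporter Slc7a5 at 0.14), and 26 were positive with a median of 0.11, where 0.383% of all genes were higher. Set against the 221 other chemicals, 0 of the 28 were called, 13 were positive and the median was 0.00. Of 20 p53 targets Bbc3 (0.34), which encodes the pro-apoptotic PUMA, and the cell cycle inhibitor Cdkn1a (0.16) were higher, and 0 against the other chemicals. Of 32 immediate early genes Jun (0.27) and Jund (0.18) were higher. Of 16 activity-dependent secreted factors Sst was higher and Inhba lower, and of 33 glutamate and GABA receptor genes Grm5 (-0.13) was lower. None of 18 endoplasmic reticulum stress genes was called, with 1 positive and a median of -0.05, and none of 17 heat shock genes or 7 aryl hydrocarbon receptor targets. Among the cell type lists Fezf2 (0.20), of deep-layer excitatory neurons, and Sst, of GABAergic neurons, were called. Most markers of both lists went the other way. The excitatory list had 3 of 10 genes positive and a median of -0.06, and the GABAergic list 3 of 10 and -0.03. Set against the 221 other chemicals, 0 genes of either list were called. None of 8 astrocyte, 6 microglia, 7 oligodendrocyte, 10 mural and fibroblast, 1 endothelial and 9 proliferating cell genes was called, and the list medians lay between -0.22 (endothelial) and 0.06 (mural and fibroblast).

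Genes of the organophosphates' own targets did not pass the test in the class. Of 16 measured genes of the cholinergic synapse list of 31, 0 were called and the list median was -0.03. In single members the list median lay below the vehicle range (-0.20 to 0.27) with trichlorfon (-0.30), coumaphos (-0.25) and methidathion (-0.23) and above it with acephate (0.29), with no gene called in any of these 4. Trichlorfon was also below, and acephate above, all 221 other chemicals (-0.25 to 0.22). Ache, acetylcholinesterase, had a difference of -0.02 (95% interval -0.16 to 0.12). Its values ran from -0.54 (dimethoate) to 0.50 (methidathion) in the members and from -0.57 to 0.82 in vehicle, so no member lay outside the vehicle range. Bche, butyrylcholinesterase, had a difference of 0.00 (-0.22 to 0.22). The lone call in the list was the nicotinic receptor gene Chrna7 with fosthiazate (-0.99, limma adjusted p = 0.0225). Of 21 measured serine hydrolases and 14 measured genes of organophosphate metabolism, 0 were called in the class. Gstm1 was higher with naled (1.37) and phosalone (1.51), Gstm5 with methidathion, and the hydrolase Abhd2 was lower with azinphos-methyl (-0.79) and fosthiazate (-0.77). RNA of the esterases does not report their activity, which was not measured in these libraries.

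Members were then compared in 6 pairs that differ by a named change in structure, all at the same dose and time, with p-values adjusted over all genes and pairs. Over the 6 pairs 23 of 79824 tests were called (0.0288%). Diazoxon has oxygen where diazinon has sulfur, and 4 genes differed, A830052D11Rik (3.09 higher in the oxon), D030028A08Rik (1.84), Cgrrf1 (-4.62) and Uchl5 (-2.20). Malaoxon has oxygen where malathion has sulfur, and 7 genes were higher in the oxon, led by Rplp2 (3.55), Ndufab1 (3.30) and Tyw5 (2.95). Chlorpyrifos oxon differs from chlorpyrifos-methyl in the oxygen and in having ethoxy for methoxy groups, and Lmcd1 (5.53), Anxa2 (4.02), B830017H08Rik (-3.51) and BC021891 (-2.34) differed. Methamidophos lacks the acetyl group of acephate, and Pdcl3 (2.28) and Aftph (0.85) were higher. Dichlorvos, to which trichlorfon rearranges, differed from it in Fdx1 (4.63), Mfsd2a (2.77) and Ska3 (-3.86). Naled is dichlorvos with bromine added across the vinyl group, and Cbs (3.77), Adrm1 (3.23) and Mocs3 (1.69) were higher with dichlorvos. As deviations from the screen median, they stood at 0.52, 0.68 and 0.08 with dichlorvos and at -3.24, -2.55 and -1.60 with naled. Each of the 6 pairs compares 1 library with 1 library, for which the median 95% half-width was 0.70.

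Jun, Bcl2l11, Srxn1, Hmox1 and Ache were not called in any pair. For Jun, chlorpyrifos oxon was 0.76 above chlorpyrifos-methyl (95% interval 0.28 to 1.23, limma adjusted p = 0.406). Diazoxon and diazinon differed in Jun by -0.09 (-0.56 to 0.39) and malaoxon and malathion by 0.16 (-0.32 to 0.63), so both oxons stood close to their parents with intervals that still allow a difference near 0.4 or more. Dichlorvos differed from trichlorfon by -0.26 (-0.74 to 0.21) and from naled by -0.32 (-0.79 to 0.16). For Bcl2l11 chlorpyrifos oxon was 1.14 above chlorpyrifos-methyl (0.39 to 1.89). Srxn1 was 0.86 lower in dichlorvos than in trichlorfon (-1.40 to -0.32) and 0.91 lower than in naled (-1.45 to -0.37, limma adjusted p = 0.330). Hmox1 was 1.71 higher in chlorpyrifos oxon than in chlorpyrifos-methyl (0.71 to 2.71, limma adjusted p = 0.326). The Ache interval included 0 in all 6 pairs.

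**Figure D4:**
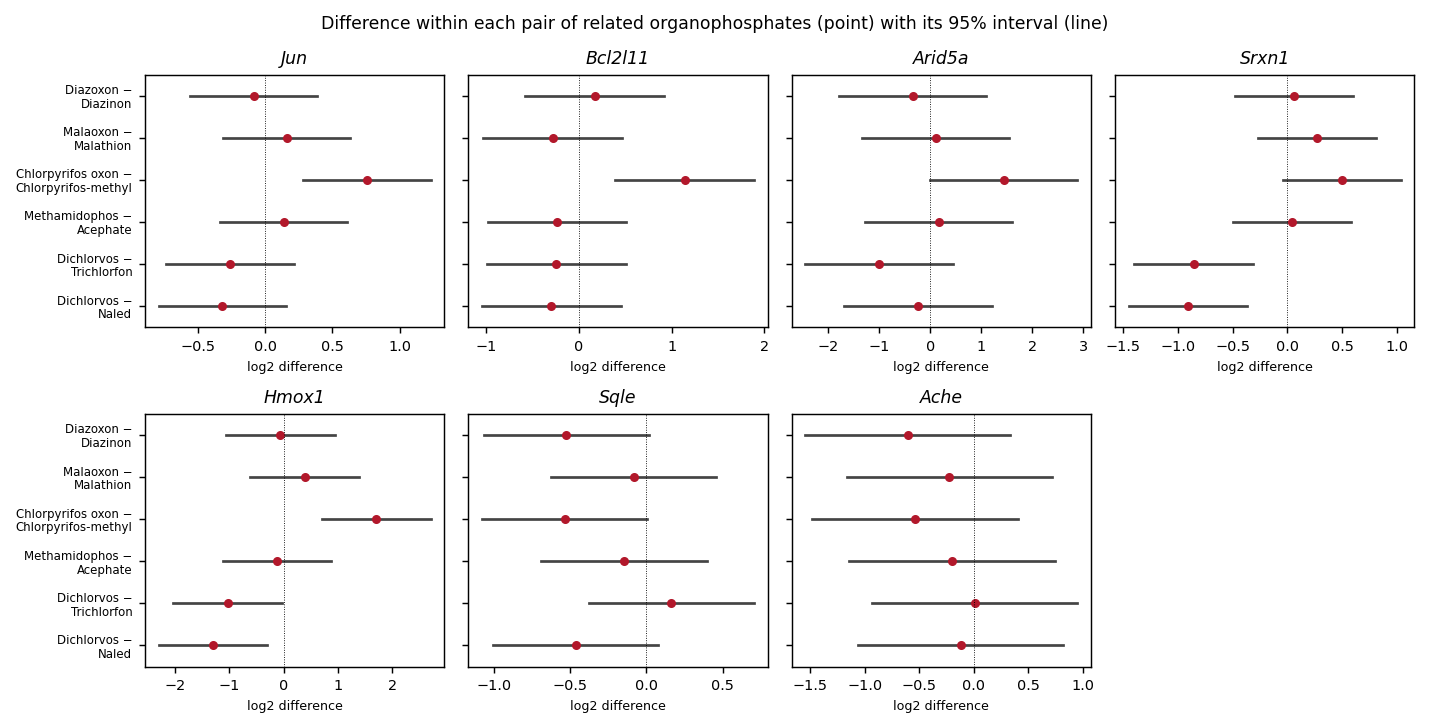
Log2 difference (point) within each of 6 pairs of related organophosphates with its 95% interval (line), for 7 genes. Chlorpyrifos oxon lies above chlorpyrifos-methyl for Jun (0.76), Bcl2l11 (1.14) and Hmox1 (1.71) with intervals that leave out 0, and none of these differences passed the adjustment over all genes and pairs.

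The carbamates offered a comparison with another class of cholinesterase inhibitors. Of 13304 genes 1 was called (0.00752%, and 780 at an unadjusted p under 0.05), Ucp2, which encodes a mitochondrial uncoupling protein. Ucp2 averaged 0.32 ± 0.44 (SD, n = 30) in the organophosphates and -0.82 ± 0.69 (SD, n = 8) in the carbamates, a difference of 1.14 (95% interval 0.75 to 1.54, limma adjusted p = 0.0104). The vehicle libraries ran from -1.66 to 1.17 for Ucp2, and 1 carbamate, pirimicarb at -1.84, lay below them. The call was lost without oxamyl or without pirimicarb (highest limma adjusted p = 0.112). The Jun difference between the classes was 0.12 (-0.21 to 0.45), with 1 carbamate, formetanate hydrochloride at 0.60, above the vehicle range.

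Whole profiles of the members were mostly unrelated. Over the 435 pairs of members the Spearman correlation across 13304 genes had a median of 0.01, with 24 pairs over 0.1. After the 3 pairs given above, the highest were 0.20 for dichlorvos with trichlorfon and 0.19 for dichlorvos with naled. Profenofos with trichlorfon had 0.19 and chlorpyrifos oxon with trichlorfon 0.18. Other pairs among naled, dichlorvos, trichlorfon, profenofos and chlorpyrifos oxon ran down to 0.09, for chlorpyrifos oxon with naled. Pairs outside these compounds overlapped that range, such as diazinon with fosthiazate (0.16), methidathion with phosalone (0.16) and azinphos-methyl with chlorpyrifos-methyl (0.15). Some chemicals that are not members were as near, such as emamectin benzoate to naled (0.18) and trifloxystrobin to profenofos (0.16) and trichlorfon (0.16). Of the pairs over 0.1, 12 of 105 were between P=O members, 6 of 105 between P=S members and 6 of 225 between the kinds. Members with other chemicals gave 258 of 6630 pairs over 0.1. The oxons were not near their parents, with 0.00 for diazoxon with diazinon, -0.02 for malaoxon with malathion and -0.01 for chlorpyrifos oxon with chlorpyrifos-methyl. The pair of mevinphos libraries, the lone repeat among the members, had 0.02 with each other. Mevinphos had 0 called genes, so this pair cannot show how far the profile of a compound with many calls repeats. All libraries share the centring of the table, and these correlations carry no test.

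**Figure D5:**
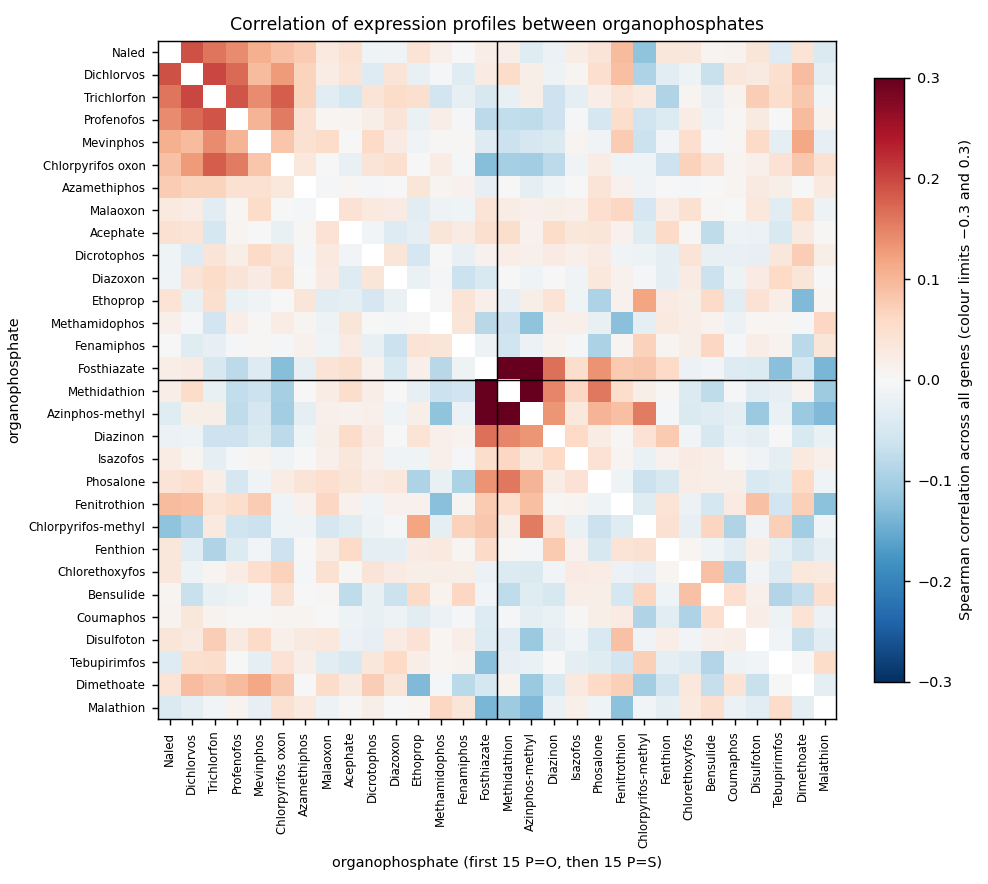
Spearman correlation over 13304 genes (colour) between the profiles of the 30 organophosphates, with 15 P=O compounds first and 15 P=S compounds after the black lines. The darkest block joins fosthiazate, methidathion and azinphos-methyl (0.33 to 0.43), and paler cells join naled, dichlorvos, trichlorfon, profenofos and chlorpyrifos oxon (0.09 to 0.20). Some pairs outside these groups reach similar values, such as diazinon with fosthiazate (0.16).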

How the data were processed

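The screen table deposited by the authors holds log10 values per gene and library. According to the methods, reads were aligned to mm9 with TopHat (version not given), RPKM were computed over RefSeq genes, filtered (RPKM above 0 in most libraries), log10-transformed, quantile-normalized and median-centred, and culture and sequencing batch effects were removed. Batches are not named in the labels, so no within-batch value was computed, and the removal can shrink or shift differences. Depth is unknown. Values were multiplied by 3.32 to log2. Groups came from sample titles, and mevinphos libraries were averaged. Tests were two-sided moderated tests in limma 3.58.1 (R 4.3.3) on 13304 genes with Benjamini-Hochberg adjustment, tested on simulated data. Promoters came from RefSeq GRCm38.p6, transcript lengths from GENCODE M1 and figures from matplotlib 3.10.9.

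Genes named were the 10 largest called rises and falls against vehicle, the 5 in each direction in the other group comparisons (if none was called, the 3 of lowest p), the 3 in each direction for each pair and for the 5 members with most calls, the genes called in most members, and called genes of the lists. Values of these genes in comparisons where the rule does not name them, list genes beyond 6 per list and member, Dusp8, Scd1 and the nearest profiles were chosen after they were seen. The members and lists were chosen with earlier results of these data known. Some genes that the rule names are not reported here. Alternatives were a filter for variable genes, a stricter threshold, a variance trend, other member and comparison sets, and leaving out libraries.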

Additional observations from a re-analysis of the deposited data

Results flagged for a closer look

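For 24 combinations of 8-chemical groups and genes, a chemical far from the rest of its group was sought with Dixon's ratio (critical value 0.526 for 8 values), and 7 were found. Chance flags about 1 in 20 groups, but these genes were chosen with their values in single chemicals known, so that rate does not apply to them. Among the 8 diethoxy members, chlorpyrifos oxon was far above the rest for Arid5a (1.69), Bcl2l11 (1.20) and Stmn4 (0.46). Phosalone was far above the rest of the diethoxy members for Srxn1 (2.38) and Hmox1 (2.88). Among the 8 carbamates, formetanate hydrochloride was far above the rest for Jun (0.60) and Jund (0.58). All 7 are log2 differences from the vehicle mean of single libraries, and none has a repeat.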

How the results depend on the processing

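Against vehicle, 188 genes were called; the count was 7 with the variable genes alone (5121 genes tested), 38 at a threshold of 0.01, 51 without the 5 members in the study's clusters 3, 4 and 6, and 100 without trichlorfon and naled, and 117 to 262 when 1 library or chemical was left out (lowest without fosthiazate). Against the other chemicals, 7 became 0 with the variable genes, 3 at 0.01, 1 without the members in clusters, 40 against the other chemicals outside clusters, 0 without trichlorfon and naled, and 1 to 17 with 1 member left out (1 without dichlorvos, naled or trichlorfon; 3 without chlorethoxyfos, fosthiazate or profenofos; 4 without methidathion or mevinphos; 11 to 17 without fenthion, diazinon, coumaphos, fenamiphos, methamidophos or chlorpyrifos-methyl). Against carbamates, 1 became 0 at 0.01 and with the 6 organophosphates outside the rule added, and 0 to 2 with 1 left out (0 without oxamyl or pirimicarb, 2 without bendiocarb). Over the single members 1675 calls became 623 at 0.01 and 658 with the variable genes, and over the pairs 23 became 7 at 0.01. Mevinphos had 0 calls, and 0 to 2 with either library alone. The remaining alternatives kept counts within 1.5 times, the comparisons of P=O with P=S and of dimethoxy with diethoxy members had 0 calls in every alternative run, and no direction reversed. Of values for single named genes, 132 kept their side of the threshold and 83 lost the call. The alternatives without trichlorfon and naled, and those that left out 1 library, were chosen after seeing the data. The cause of these shifts was not tested. No paired analysis was possible because replicate numbers in the labels belong to libraries of other groups and do not link members to vehicle.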

Other observations

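The 7 genes called higher with malaoxon, of 13304 tested, were Acss2 (1.28), Srxn1 (1.15), Scd1 (1.13), Cactin (0.96), Rnf145 (0.84), Fasn (0.72) and Fads1 (0.43). Fasn, fatty acid synthase, was called lower with trichlorfon (-0.71). These genes were named after their values were seen.

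Dimethoate had 1 called gene, but its profile was nearest to inhibitors of mitochondrial electron transport, with Spearman correlations over 13304 genes of 0.30 with fenamidone, 0.29 with fenpyroximate, 0.29 with pyraclostrobin and 0.28 with trifloxystrobin. Mevinphos, with 0 called genes, was nearest to trifloxystrobin (0.18) and pyraclostrobin (0.17). Such inhibitors were also the nearest chemicals to phosalone (trifloxystrobin, 0.20), coumaphos (famoxadone, 0.20), malaoxon (fenamidone, 0.12) and dicrotophos (trifloxystrobin, 0.11), so this was not particular to dimethoate and mevinphos. These lists of neighbours were read after the values were seen and carry no test.

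Uqcrq, a subunit of complex III, was called lower in dicrotophos (-1.02), ethoprop (-0.83), malathion (-0.68) and profenofos (-1.23) and higher in fosthiazate (0.70), while the vehicle libraries ran from -0.32 to 0.29. Among the 221 other chemicals it was called lower in 4 and higher in 1.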
